A study of Caenorhabditis elegans with 18 samples.

Results

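Small RNAs counted under 6 genes of germ granule proteins were followed across all 18 libraries of the series. The genes were taken by WormBase symbol, pgl-1, pgl-3, glh-1, glh-4, znfx-1 and deps-1, out of 20134 genes in the deposited table. No threshold on a measured value was used, but earlier results of these data were known when they were chosen. All 6 had a row and passed the filter on low counts.

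Small RNA libraries were made from whole Caenorhabditis elegans larvae of stage L4, the one before the adult, kept at 15 °C. The strains were 1xFLAG::WAGO-3, with a FLAG tag on the Argonaute WAGO-3, 1xFLAG::WAGO-1 dpf-3{delta}, with a tagged WAGO-1 and a deletion in the dipeptidyl peptidase gene dpf-3, and 1xFLAG::WAGO-1, with the same tag and no dpf-3 deletion stated (here called intact). From each strain there were 3 libraries of RNA bound to anti-FLAG beads (the immunoprecipitate, IP) and 3 of input RNA, labelled A, B and C. The labels do not say how many animals, cultures or independent lines stand behind the libraries, so p-values measure only the spread between these libraries. Every strain carried a FLAG tag, and an IP from an untagged strain was not analysed here. Only the inputs were passed through a small RNA enrichment step, so binding to the tagged protein, bead background and preparation cannot be told apart in any IP set against its input.

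Germ granules, among them the P granules of this worm, are condensates of RNA and protein that sit on the outer face of the nuclear pores of germ cells, where newly exported transcripts meet the small RNA machinery. WAGO-1 and WAGO-3 carry 22G RNAs, secondary small RNAs made by RNA-dependent polymerases as antisense copies of a transcript, and many such Argonautes reside in these granules. A gene can also be the template of such RNAs, and that is what was counted here: the values are levels of small RNAs that map to a gene, not of its messenger RNA or its protein. Sense and antisense reads could not be separated, and in whole animals fewer germ cells and fewer small RNAs per cell cannot be told apart.

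IP libraries held 2206087 to 5649896 reads in features (genes and unnamed intervals) and input libraries 88761 to 517278. The 6 genes together had 1697 to 11906 reads per IP and 277 to 670 per input, so their input values are the less precise. Reads of dpf-3 itself stood at 8.22 ± 4.06 CPM (counts per 1000000 of the library scaled with edgeR's TMM factors) in the deletion inputs and 28.6 ± 7.35 CPM in the intact inputs (SD, n = 3), from 6 and 39 reads in all. Its log2 fold between these inputs was -1.73 ± 0.59 (SE, edgeR adjusted p = 0.0199), while between the IPs it was -0.54 (edgeR adjusted p = 0.186). The input fold lost its call under total counts (-0.97, edgeR adjusted p = 0.214), which makes dpf-3 reads a poor test of the deletion. Germ line markers were present in every group, with summed levels of the 8 listed genes of 165 to 535 CPM and none of them at 0 over a group.

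In the WBcel235 annotation (assembly ce11), pgl-1 spans chromosome IV 6974442 to 6977318, pgl-3 chromosome V 4755979 to 4758587 and znfx-1 chromosome II 9213702 to 9223150. The other members lie on chromosome I, deps-1 at 506473 to 509056, glh-4 at 3727027 to 3731179 and glh-1 at 6854478 to 6857536. The deps-1 span overlaps that of Y65B4BL.7 by 109 bases, and reads in that stretch cannot be assigned to either gene. Counts are given per gene, so exons, introns and UTRs are not distinguished. Whether reads in introns were counted is not known here, and levels per kb below use the whole span. The glh-1 gene is 11.1 kb from dpf-3 on the same chromosome.

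PGL-1 and PGL-3 are related proteins that build the scaffold of P granules. Reads of pgl-1 stood at 226, 230 and 214 CPM in the WAGO-3 IPs (libraries A, B and C) and 166, 176 and 101 CPM in the WAGO-3 inputs. They stood at 414, 386 and 384 CPM in the deletion IPs and 307, 275 and 420 CPM in the deletion inputs. In the intact WAGO-1 IPs they stood at 50.6, 49.5 and 45.7 CPM, and in the intact inputs at 131, 147 and 145 CPM. The intact WAGO-1 IPs were thus the lowest group by a wide margin, and both deletion groups were the highest, with ranges that overlap each other and no other group.

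Reads of pgl-3 were scarcer and moved less. They stood at 94.4, 91.9 and 82.7 CPM in the WAGO-3 IPs and 129, 134 and 78.3 CPM in the WAGO-3 inputs. They stood at 55.9, 47.2 and 52.1 CPM in the deletion IPs and 130, 99.6 and 111 CPM in the deletion inputs. They stood at 28.9, 30.5 and 26.9 CPM in the intact IPs and 80.7, 89.7 and 101 CPM in the intact inputs. The input ranges of the 3 strains overlapped, the WAGO-3 IPs lay within the range of their own inputs, and the deletion IPs and then the intact IPs lay below all of these.

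GLH-1 and GLH-4 are DEAD-box RNA helicases related to Vasa that reside in P granules. Reads of glh-1 were the most frequent of the 6 genes in every IP group, at 800, 832 and 705 CPM in the WAGO-3 IPs, 963, 770 and 822 CPM in the deletion IPs and 813, 504 and 440 CPM in the intact WAGO-1 IPs. The inputs held 332, 399 and 303 CPM for WAGO-3, 360, 327 and 265 CPM for the deletion and 222, 254 and 239 CPM for intact WAGO-1. All 9 IPs exceeded all 9 inputs on this TMM scale, but not per 1000000 total counts. There all 3 WAGO-3 IPs (347, 366 and 317) lay below their inputs (471, 527 and 419), and intact IPs B and C (249 and 220) but not A (389) lay below theirs (315, 334 and 320). Library A of the intact IP stood apart at 1.61 times the higher of its companions, a step reached by 10 of 1675 features with at least 100 CPM in that group (0.597%), and it alone brought that group into the range of the other IPs.

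Reads of glh-4 followed another order. They stood at 354, 356 and 345 CPM in the WAGO-3 IPs and 196, 228 and 228 CPM in the WAGO-3 inputs. They stood at 89.6, 91.3 and 95.2 CPM in the deletion IPs and 234, 247 and 170 CPM in the deletion inputs. They stood at 155, 149 and 151 CPM in the intact IPs and 222, 243 and 269 CPM in the intact inputs. Each IP group was tight and apart from the others, with WAGO-3 highest and the deletion lowest, while the input ranges of the 3 strains overlapped.

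ZNFX-1 is a helicase-like zinc finger protein of the Z granule, a compartment beside the P granule, and acts in the inheritance of small RNA silencing. Its gene had 583, 598 and 683 CPM in the WAGO-3 IPs and 355, 322 and 261 CPM in the WAGO-3 inputs. It had 407, 440 and 435 CPM in the deletion IPs and 475, 479 and 420 CPM in the deletion inputs. It had 155, 135 and 136 CPM in the intact IPs and 219, 200 and 225 CPM in the intact inputs. The intact WAGO-1 IPs were again the lowest group, and only the deletion IPs and deletion inputs overlapped among neighbours in this order.

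DEPS-1 is a P granule protein needed for the normal expression of other P granule components. Reads of deps-1 stood at 60.6, 55.8 and 54.5 CPM in the WAGO-3 IPs and 72.9, 86.8 and 75 CPM in the WAGO-3 inputs. They stood at 56.2, 52.3 and 48.5 CPM in the deletion IPs and 107, 176 and 92.2 CPM in the deletion inputs. They stood at 24.6, 26.6 and 14.6 CPM in the intact IPs and 57.2, 51.5 and 81.8 CPM in the intact inputs. The intact IPs lay below every other library and the deletion inputs above every other one.

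**Figure D1:**
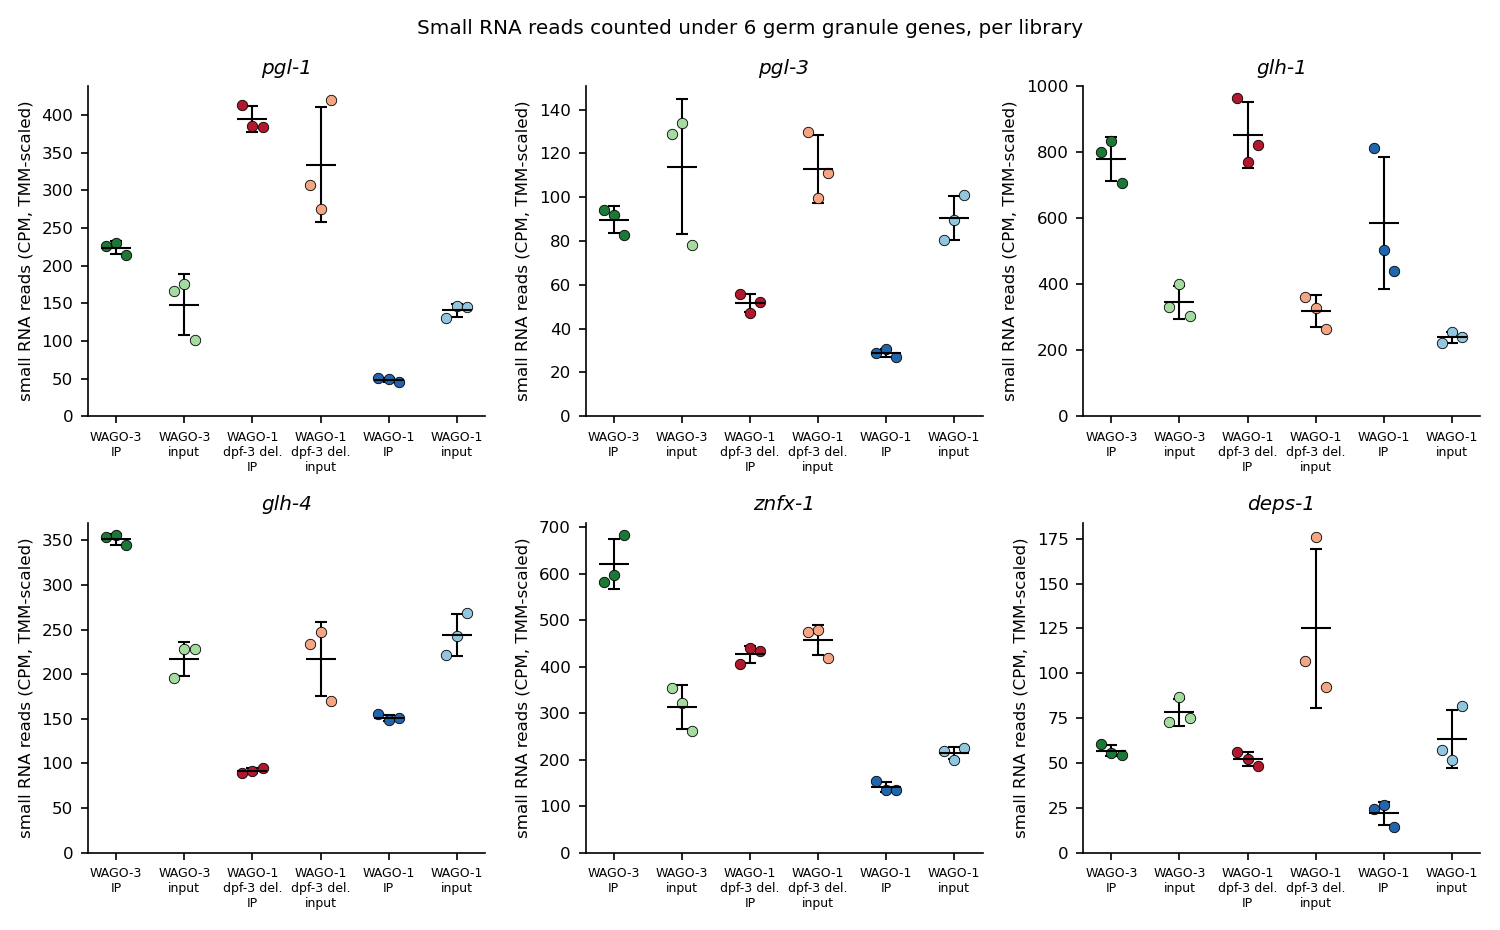
Small RNA reads of each gene in CPM of the TMM-scaled library (vertical axis, linear and starting at 0) for the 6 groups; points are libraries A, B and C from left to right, and the bar and whiskers are the mean and SD (n = 3). In the intact WAGO-1 IPs pgl-1 sits at 45.7 to 50.6 CPM, below all other groups, while glh-1 is higher in all IPs than in all inputs on this scale (under total counts this holds only within the deletion strain).

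Per kb of gene span, glh-1 had the highest mean level of the 6 genes in each IP group, 255 CPM per kb in the WAGO-3 IPs, 278 in the deletion IPs and 191 in the intact IPs. The next was glh-4 in the WAGO-3 IPs (84.6 CPM per kb), pgl-1 in the deletion IPs (137) and glh-4 in the intact IPs (36.5). In the inputs the span-scaled level of pgl-1 was 51.3 CPM per kb for WAGO-3, 116 for the deletion and 49.0 for intact WAGO-1, and it was the highest of the 6 in the deletion inputs, where glh-1 led in the inputs of the other strains with 113 and 78.0. Together the 6 genes took 0.0936% ± 0.00165 of feature counts in the WAGO-3 IPs and 0.167% ± 0.0191 in their inputs, 0.203% ± 0.00764 in the deletion IPs and 0.359% ± 0.0268 in theirs, and 0.0478% ± 0.00949 in the intact IPs and 0.135% ± 0.00643 in theirs (SD, n = 3). As a share of feature counts, every IP group was thus below its own inputs. On the TMM scale this was not so: the sum was 2122 CPM in the WAGO-3 IPs and 1215 CPM in their inputs, 1870 CPM in the deletion IPs and 1565 CPM in theirs, and 978 CPM in the intact IPs and 992 CPM in theirs.

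The make-up of this 6-gene pool does not depend on how libraries are scaled. The share of glh-1 in it was 36.7% in the WAGO-3 IPs and 28.4% in their inputs, 45.5% in the deletion IPs and 20.2% in theirs, and 58.9% in the intact IPs and 24.1% in theirs. In each strain the 3 IPs lay above the 3 inputs. The share of pgl-1 was 21.1% (20.9% to 21.6%) in the deletion IPs and 5.09% (4.12% to 5.61%) in the intact IPs, without overlap. That of glh-4 ran the other way, at 4.93% in the deletion IPs and 15.9% in the intact IPs. The share of znfx-1 was largest in the WAGO-3 IPs and the deletion inputs, 29.3% in each, and smallest in the intact IPs at 14.8%. Group means of pgl-3 and deps-1 were 2.26% to 4.22% in the IPs and 6.36% to 9.26% in the inputs.

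**Figure D2:**
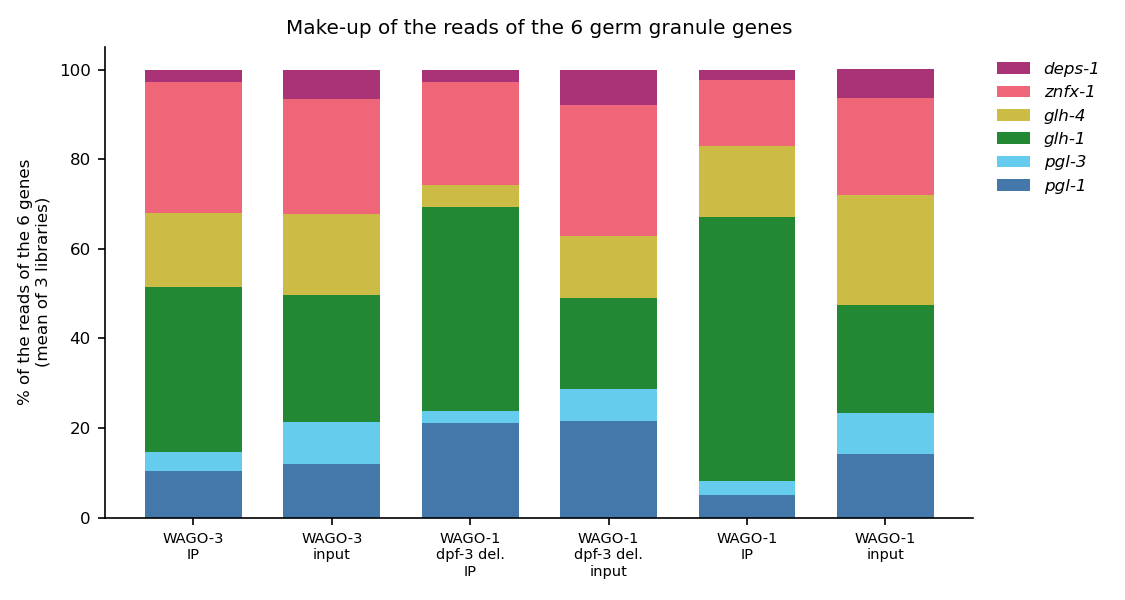
Share of each gene in the summed reads of the 6 genes (vertical axis, percent, mean of 3 libraries) for the 6 groups, stacked from pgl-1 at the bottom to deps-1 at the top. The share of glh-1 is larger in each IP than in its input (36.7% against 28.4%, 45.5% against 20.2% and 58.9% against 24.1%), and that of pgl-1 is 21.1% in the deletion IPs and 5.09% in the intact IPs.

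Each IP was then set against its own input, with folds on the TMM scale unless another scaling is named. Such a fold is not a change in a gene's part of the reads in features, which the folds under total counts give. In the WAGO-1 IP only glh-1 was higher than in its input, and the other members were all lower, on the TMM scale. Under total counts the fold of glh-1 was -0.21 and not called. The log2 fold of glh-1 was 1.25 ± 0.12 (SE, edgeR adjusted p = 1.07e-17). The largest differences below the input were those of pgl-3 at -1.67 ± 0.18 (edgeR adjusted p = 1.20e-14), pgl-1 at -1.56 ± 0.15 (9.78e-18) and deps-1 at -1.54 ± 0.22 (1.04e-09). Those of glh-4 at -0.71 ± 0.11 and znfx-1 at -0.60 ± 0.12 were smaller. So 1 member was called higher (edgeR, Benjamini-Hochberg adjusted p under 0.05), where 43.2% of all 11648 features were, and 5 were called lower, where 24.9% were.

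In the deletion IP, glh-1 was again higher than in its input, with a log2 fold of 1.43 ± 0.13 (edgeR adjusted p = 4.43e-19). The members glh-4 at -1.22 ± 0.14, deps-1 at -1.21 ± 0.20 and pgl-3 at -1.14 ± 0.19 were lower. The folds of pgl-1 at 0.22 ± 0.11 (edgeR adjusted p = 0.0871) and znfx-1 at -0.10 ± 0.10 (0.434) did not pass the threshold. The fold of pgl-1 passed without library C of the deletion input (0.43), with genes only (0.34), with no filter (0.51), with another library as TMM reference (0.27 to 0.45) and with all counted reads as library size, and under total counts it was -0.85. That made 1 of 6 called higher and 3 called lower, beside 32.9% and 21.2% of all features.

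In the WAGO-3 IP 4 members were higher than in the input on the TMM scale, and all 4 were lower under total counts. They were glh-1 at 1.17 ± 0.12 (edgeR adjusted p = 5.24e-16), znfx-1 at 0.98 ± 0.10 (2.24e-15), glh-4 at 0.69 ± 0.12 (1.62e-07) and pgl-1 at 0.58 ± 0.14 (1.58e-04). The call of pgl-1 was lost with library B of the WAGO-3 input as TMM reference (0.3, edgeR adjusted p = 0.0627). With all counted reads the calls of pgl-1 (0.13) and glh-4 (0.24) were lost. The fold of deps-1 was -0.47 ± 0.21, called lower with an edgeR adjusted p of 0.0481, and the call was lost when any of 5 libraries was left out (-0.44 without WAGO-3 IP B or C, -0.51, -0.37 and -0.50 without WAGO-3 input A, B or C), and with genes only (-0.29), no filter (-0.47) or library B of the deletion input as TMM reference (-0.35). The fold of pgl-3 was -0.35 ± 0.17 (edgeR adjusted p = 0.0626), and it was called lower without WAGO-3 input C (-0.54), with DESeq2 or its size factors (-0.48 each), with the WAGO-3 groups alone (-0.62), with 4 of 5 other TMM references (-0.43 to -0.63), with all counted reads as library size (-0.80) and with total counts (-1.99). Of all features, 34.8% were called higher and 26.8% lower.

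Where 0 lies in these comparisons rests on the scaling of libraries. With TMM factors the median log2 fold over all features was 0.23 for WAGO-3, 0.40 for the deletion and 0.52 for intact WAGO-1, while scaling by total counts gave -1.39, -0.67 and -0.92. Under total counts no member was called higher and all 6 lower in the WAGO-3 IP, 1 higher and 5 lower in the deletion IP, and none higher and 5 lower in the intact IP. The shares of all features then called higher and lower were 10.2% and 52.1% for WAGO-3, 12.8% and 37.0% for the deletion, and 12.3% and 48.8% for intact WAGO-1. Under that scaling the folds of glh-1 were -0.47 in the WAGO-3 IP and -0.21 in the intact IP. Relative to the median of all features, with TMM factors, glh-1 stood 0.93 above in the WAGO-3 IP, 1.03 above in the deletion IP and 0.74 above in the intact IP, and pgl-3 and deps-1 stood below the median in all 3. The order of the members among themselves is free of scaling: glh-1 had the highest fold in each IP, exceeding the lowest member by 1.63 for WAGO-3, 2.65 for the deletion and 2.92 for intact WAGO-1.

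**Figure D3:**
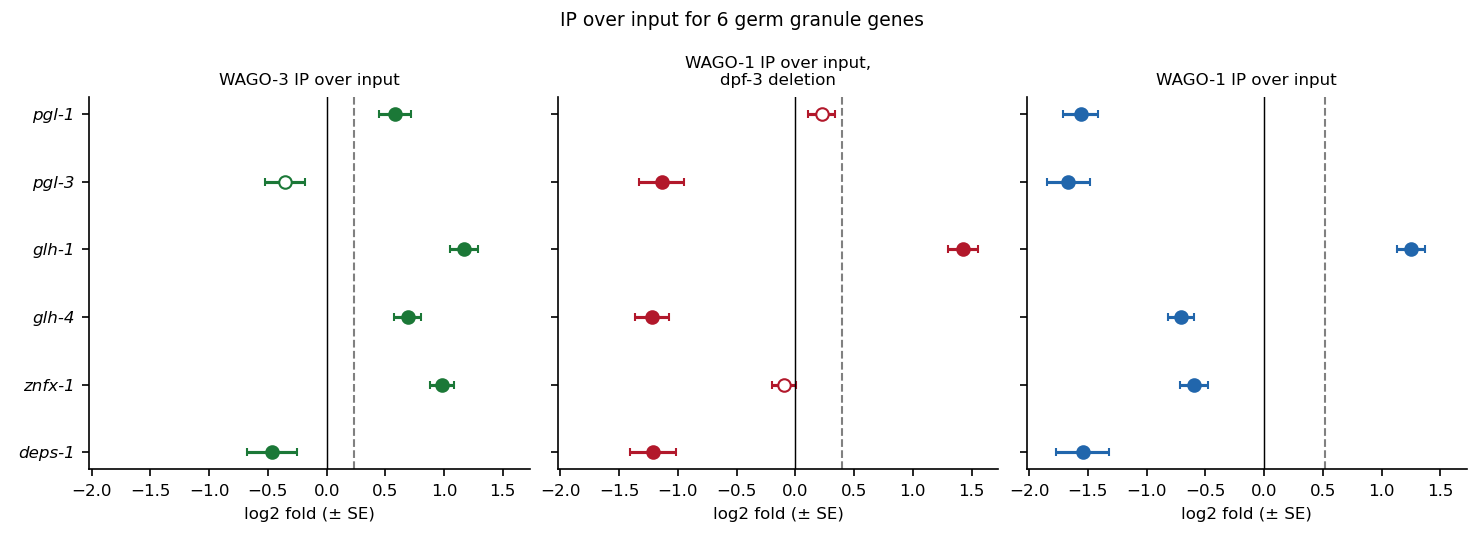
Log2 folds of IP over input (horizontal axis, ± SE from edgeR) for the 6 genes in the WAGO-3, deletion and intact WAGO-1 strains. Filled points passed an adjusted p of 0.05, open points did not, and the dashed line is the median of all 11648 features; glh-1 lies right of it in each panel, at 1.17, 1.43 and 1.25.

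The deletion of dpf-3 was then set against intact dpf-3 within the WAGO-1 IPs, which asks how the small RNA content of WAGO-1 differed between the genotypes. Here 5 members were higher in the deletion. The gene glh-4 was lower on the TMM scale, but not under total counts or with all counted reads. The difference of pgl-1 was by far the largest of the 6, with 395 ± 16.8 CPM in the deletion IPs and 48.6 ± 2.58 CPM in the intact IPs (SD, n = 3), a log2 fold of 3.03 ± 0.10 (edgeR adjusted p = 2.33e-58). Only 0.361% of all features had a larger fold. The fold of znfx-1 was 1.60 ± 0.08 (3.28e-38 by edgeR), exceeded by 4.43% of features, and that of deps-1 was 1.28 ± 0.15 (2.70e-14), exceeded by 8.89%. The folds of pgl-3 at 0.85 ± 0.13 (edgeR adjusted p = 4.29e-09) and glh-1 at 0.56 ± 0.09 (9.92e-09) were more usual, with 19.1% and 29.4% of features above them.

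Intact library A lay within the range of the deletion IPs for glh-1, and the fold of glh-1 without that library was 0.85. For glh-4 the deletion IPs had 92 ± 2.9 CPM and the intact IPs 151 ± 2.94 CPM, a log2 fold of -0.71 ± 0.09 (edgeR adjusted p = 2.15e-12). The call was lost with library B of the intact input as TMM reference (-0.19, edgeR adjusted p = 0.053). This direction rests on the scaling, as the fold was 0.55 with all counted reads and 0.42 with total counts per library. With total counts all 6 members were called higher, where 69.2% of all features were and 16.9% were lower, and the median of all features was 1.19, compared with 0.07 under TMM. Whatever the scaling, the fold of pgl-1 exceeded that of glh-4 by 3.74. The counts of 5 higher and 1 lower stand beside 30.6% and 31.8% of all features.

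In the inputs, which hold the small RNAs of the whole extract, the members differed less between the genotypes. Reads of pgl-1 had a log2 fold of 1.24 ± 0.15 (edgeR adjusted p = 4.09e-12), those of znfx-1 1.10 ± 0.13 (7.87e-13) and those of deps-1 0.95 ± 0.24 (8.11e-04), all higher in the deletion. The call of deps-1 was lost without library B of the deletion input, at 0.67 (edgeR adjusted p = 0.0704). It was also lost with library B of the intact IP (0.29) or of the WAGO-3 IP (0.57) as TMM reference. The folds of glh-1 at 0.39 ± 0.16 (edgeR adjusted p = 0.0708), pgl-3 at 0.32 ± 0.21 (0.30) and glh-4 at -0.20 ± 0.15 (0.367) did not pass, and glh-1 passed without library C of the deletion input at 0.51. Thus 3 members were called higher and 0 lower by edgeR, beside 8.61% and 14.9% of all features. None was lower at an unadjusted p under 0.05, and DESeq2 called 1 lower, glh-4 at -0.37. This gene was also called lower with genes only (-0.42) and with each other TMM reference tried (-0.41 to -0.87). With total counts per library all 6 were called higher, where 29.1% of all features were and 10.2% were lower, the fold of glh-4 was 0.56, and the median of all features was 0.78, compared with 0.02 under TMM.

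The interaction of genotype and IP, the IP over input in the deletion against the IP over input in intact animals, separates what differed in the IP beyond the inputs. Only pgl-1 passed, with a difference of log2 folds of 1.79 ± 0.19 (edgeR adjusted p = 1.38e-13), and this call held in every alternative tried, at 1.68 to 2.83. The values of pgl-3 at 0.53 ± 0.25 (edgeR adjusted p = 0.36), znfx-1 at 0.50 ± 0.15 (0.0637), deps-1 at 0.33 ± 0.28 (0.708), glh-1 at 0.17 ± 0.19 (0.781) and glh-4 at -0.51 ± 0.17 (0.114) did not. Without intact IP library A znfx-1 also passed at 0.55, and without deletion input C glh-4 did at -0.67. Of all features 1.55% were called higher and 0.661% lower, and of the members 1 and 0 were by edgeR. At an unadjusted p under 0.05 these counts were 3 and 1, and by DESeq2 2 and 0. With total counts per library 4 members were called higher, where 7.41% of all features were and 0.378% were lower.

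**Figure D4:**
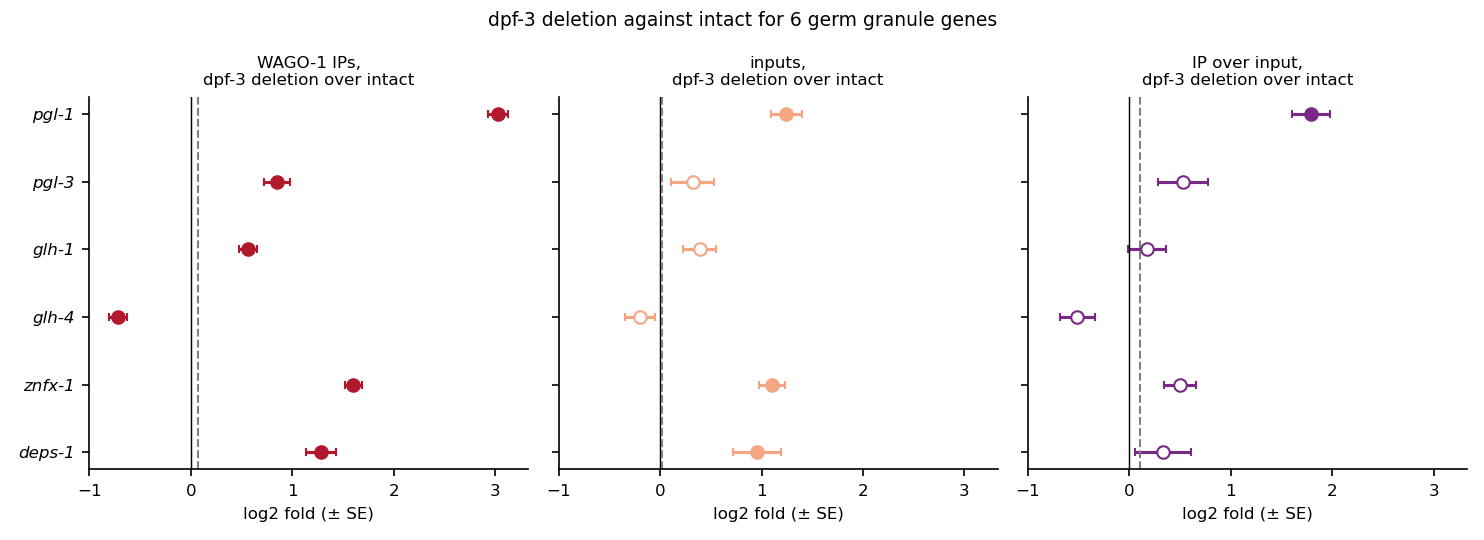
Log2 folds of the dpf-3 deletion over intact (horizontal axis, ± SE from edgeR) in the WAGO-1 IPs, in the inputs and in IP over input. Filled points passed an adjusted p of 0.05, and the dashed line is the median of all features; pgl-1 lies farthest right in each panel, at 3.03, 1.24 and 1.79.

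Other measures moved with genotype as well, given here on the TMM scale unless another is named. The 8 germ line markers summed to 300 to 307 CPM in the deletion IPs and 165 to 198 CPM in the intact IPs, with 6 called higher and 2 lower, and to 503 to 535 CPM in the deletion inputs and 315 to 393 CPM in the intact inputs. The 12 spermatogenesis genes summed to 139 to 145 CPM in the deletion IPs and 293 to 318 CPM in the intact IPs, but to 863 to 1044 CPM in the deletion inputs and 553 to 706 CPM in the intact inputs. The single genes did not follow these sums as a group: the median log2 fold of the 12 was 0.15 between the IPs, with 2 called higher and 4 lower, and -0.01 between the inputs, with 1 higher and 1 lower. Of all features 8.61% were called higher and 14.9% lower between these inputs. Under total counts 9 of the 12 were higher and 1 lower between the IPs (median 1.26), and 6 higher and 0 lower between the inputs (median 0.75). Muscle markers summed to 331 to 385 CPM in the deletion IPs and 499 to 540 CPM in the intact IPs, neuronal ones to 156 to 169 and 120 to 135 CPM, and intestinal ones to 14.7 to 16.1 and 12.3 to 19.0 CPM. Between the IPs 1 of 3 tested muscle genes was called higher and 1 lower, 4 of 5 neuronal genes higher and 1 lower, and 0 of 4 intestinal genes higher and 1 lower by edgeR, with medians of 0.06, 0.64 and 0.43. Under total counts these were 3 and 0, 5 and 0, and 3 and 0, and the germ line markers 7 and 0. Of all features 69.2% were then called higher and 16.9% lower between the IPs, and 29.1% and 10.2% between the inputs. No gene of these lists was at 0 over either IP group. Among the 16 tested genes within 50 kb of dpf-3 other than glh-1 and dpf-3 itself, 6 were called higher and 2 lower in the deletion IPs, where 30.6% and 31.8% of all features were, and their median log2 fold was 0.20, beside 0.56 for glh-1. The part of these in the results above was not tested.

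The enrichment of WAGO-3 set against that of WAGO-1, each IP over its own input, compares the Argonautes. Small RNAs of 5 members stood higher in WAGO-3 by this measure. The difference of log2 folds was 2.14 ± 0.20 for pgl-1 (edgeR adjusted p = 2.25e-17), 1.58 ± 0.16 for znfx-1 (4.87e-16), 1.39 ± 0.16 for glh-4 (8.24e-13), 1.31 ± 0.24 for pgl-3 (3.86e-06) and 1.08 ± 0.30 for deps-1 (0.00266). Each of these calls held in every alternative tried, total counts per library included. For glh-1 it was -0.09 ± 0.18 (edgeR adjusted p = 0.754), and its sign turned without intact IP library A (0.20) or WAGO-3 input B (0.05). Of all features 12.4% were called higher and 15% lower, compared with 5 and 0 of the 6 members by edgeR (also 5 and 0 at an unadjusted p under 0.05 and by DESeq2). This comparison and the preceding one use the same intact WAGO-1 libraries, so their values for a gene are not independent: pgl-1 had 1.79 with the deletion and 2.14 with WAGO-3, and glh-4 had -0.51 and 1.39.

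The inputs of the WAGO-3 strain differed from those of the WAGO-1 strain for few members. Reads of znfx-1 had a log2 fold of 0.56 ± 0.13 (edgeR adjusted p = 4.76e-04) and those of glh-1 0.53 ± 0.15 (0.00606), both higher in the WAGO-3 strain. The call of glh-1 was lost without WAGO-3 input B, at 0.39 (edgeR adjusted p = 0.177), and with DESeq2 (0.43). The other members had folds of -0.18 to 0.34 that did not pass. These 2 higher and 0 lower calls by edgeR (2 and 0 at an unadjusted p under 0.05, 1 and 0 by DESeq2) stand beside 5.73% and 8.01% of all features. With library B of the intact IP as TMM reference both were lost (znfx-1 0.2, glh-1 0.17). Under that reference glh-4 was called lower at -0.53, where 3.13% of all features were called higher and 12.2% lower.

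The ratio of related genes within a library is free of library scaling and was compared for both pairs. The log2 ratio of pgl-3 to pgl-1 was -2.89, -3.03 and -2.88 in the deletion IPs and -0.80, -0.70 and -0.76 in the intact IPs, a difference of -2.18. In the deletion inputs it was -1.22, -1.44 and -1.91 and in the intact inputs -0.69, -0.71 and -0.52, a difference of -0.89. Intact WAGO-1 IPs and inputs overlapped, with a difference of -0.11. For WAGO-3 the ratio was -1.32 ± 0.05 in the IPs and -0.37 ± 0.02 in the inputs (SD, n = 3).

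The log2 ratio of glh-4 to glh-1 was -3.43, -3.07 and -3.11 in the deletion IPs and -2.39, -1.76 and -1.54 in the intact IPs, without overlap and with a difference of -1.31. It was -0.56 ± 0.13 in the deletion inputs and 0.03 ± 0.12 in the intact inputs, where both genes had nearly equal reads. IP and input differed by -2.65 in the deletion, -1.93 in intact WAGO-1 and -0.49 in WAGO-3. Of 12 comparisons of these ratios 11 had no overlap, each with an exact two-sided permutation p of 0.1, the smallest that 3 libraries against 3 can give (0.109 adjusted over the 12), and none can therefore pass 0.05.

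**Figure D5:**
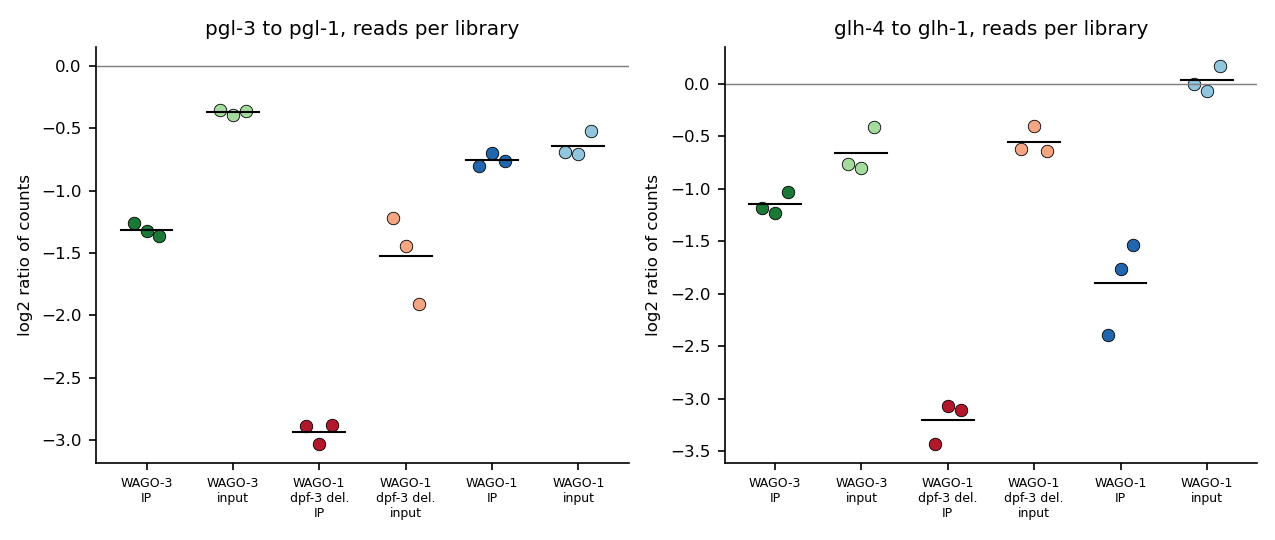
Log2 ratio of read counts within each library (vertical axis) of pgl-3 to pgl-1 and of glh-4 to glh-1 in the 6 groups; points are libraries A, B and C from left to right and bars are means. Both ratios are lowest in the deletion IPs, with means of -2.93 and -3.20, compared with -0.75 and -1.90 in the intact IPs.

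The remaining relatives had fewer reads. The P granule helicase gene glh-2 had 28.9 ± 2.66 CPM in the deletion IPs and 18.9 ± 1.75 CPM in the intact IPs (log2 fold 0.63 ± 0.16, edgeR adjusted p = 2.67e-04). The related glh-3 had 17.3 ± 0.965 CPM in the deletion IPs and 8.82 ± 1.85 CPM in the intact IPs (0.91 ± 0.21, edgeR adjusted p = 6.25e-05). A relative of the scaffold genes, pgl-2, had 47.9 ± 6.22 and 17.1 ± 6.08 CPM in these groups (1.40 ± 0.15, edgeR adjusted p = 2.35e-15), and its span overlaps that of kin-31, so its reads are uncertain. All of them were thus higher in the deletion IPs, and none passed in the interaction of genotype and IP. In all 3 IPs glh-3 was lower than in the input, at -1.38 for WAGO-3, -1.96 for the deletion and -1.82 for intact WAGO-1, the opposite of glh-1 on the TMM scale.

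A longer list held 30 other genes of germ granules and their neighbouring compartments, of which 29 had a row and all 29 were tested. Genes of it are named as having the largest folds among those called with at least 20 CPM in a group compared, so weakly covered genes such as meg-1 and meg-2 are left out of these orders. In the deletion IPs against the intact IPs, 24 were higher and 5 lower, with a median log2 fold of 1.2, compared with 0.07 over all features. Of all features 30.6% were called higher and 31.8% lower in that comparison. The largest were wago-1, the tagged Argonaute's own gene, at 2.67 ± 0.18 and mut-16, the scaffold of mutator foci, at 2.45 ± 0.12. The P granule genes meg-4 and meg-3 were lower, with 73.9 and 28.6 CPM in the deletion IPs, compared with 656 and 90.0 CPM in the intact IPs (log2 folds -3.15 ± 0.08 and -1.67 ± 0.12, edgeR adjusted p = 2.33e-70 and 2.25e-27). In the inputs of the same genotypes 16 were higher and meg-4 alone was lower (-2.70 ± 0.29), with a median of 0.62. Of all features 8.61% were called higher and 14.9% lower between these inputs. In the interaction, 10 were higher, led by mut-16 at 1.86 ± 0.29 and the Argonaute gene csr-1 at 1.56 ± 0.18, and 1 was lower, the Piwi gene prg-1 at -0.41 ± 0.12 (edgeR adjusted p = 0.0454). Of all features 1.55% were called higher and 0.661% lower there. By DESeq2 12 of the 29 were higher and 0 lower in the interaction, so the call of prg-1 was lost. With total counts per library these splits were 25 and 2 between the IPs, 24 and 1 between the inputs and 16 and 0 in the interaction. Of all features 69.2%, 29.1% and 7.41% were then called higher and 16.9%, 10.2% and 0.378% lower.

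Against their inputs, this list had 9 genes higher and 12 lower in the WAGO-3 IP, 8 and 17 in the deletion IP and 5 and 20 in the intact WAGO-1 IP, with medians of -0.17, -0.91 and -1.43. Of all features 34.8%, 32.9% and 43.2% were higher and 26.8%, 21.2% and 24.9% lower, so the 9 and 8 of 29 higher for WAGO-3 and the deletion are near the share over all features. Among genes with at least 20 CPM, the Piwi gene prg-1 led in WAGO-3 with 4999 CPM in the IP and 708 CPM in the input (log2 fold 2.81 ± 0.09). In the same IP gls-1, a germ cell regulator, stood at 1.9 ± 0.22, and ife-1, a cap-binding protein gene, at -2.81 ± 0.35. In the deletion IP prg-1 (1.28 ± 0.09) and meg-4 (1.87 ± 0.29) were highest at that limit, and glh-3 and the helicase gene cgh-1 (-1.59 ± 0.24) lowest. In the intact WAGO-1 IP meg-4 (2.32 ± 0.11) and meg-3 (1.92 ± 0.23) were highest at that limit, and csr-1 (-2.65 ± 0.14) and wago-1 (-2.53 ± 0.28) lowest. With total counts per library the splits were 1 and 22, 2 and 21, and 2 and 24, beside the shares of all features given above for that scaling. In the enrichment of WAGO-3 against WAGO-1, 17 of the 29 were higher and 0 lower by edgeR (0 lower also at an unadjusted p under 0.05 and by DESeq2), led by gls-1 at 2.3 ± 0.34 and mut-16 at 2.10 ± 0.30. Of all features 12.4% were called higher and 15% lower in that comparison. Between the inputs of the WAGO-3 and WAGO-1 strains, 2 were higher (wago-1 at 0.96 and pid-4 at 0.74) and 2 lower (meg-4 at -3.24 and meg-3 at -2.26). These counts are near the shares over all features, 5.73% higher and 8.01% lower.

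Each member's profile over the 6 groups, as mean log2 CPM centred on its own mean, was set beside those of 5976 genes with at least 20 CPM in a group. Closest to deps-1 were vps-32.1, spdl-1 and rab-11.1, with root mean square differences of 0.051, 0.052 and 0.082 on the log2 scale. Closest to glh-1 were Y71H2B.11 at 0.055, then F23H11.2 and nft-1 at 0.099 each. Those of pgl-3 were ctf-4, pfkb-1.2 and snu-66 (0.118 to 0.14), and those of znfx-1 were lab-2, Y66D12A.10 and C27F2.9 (0.208 to 0.218). Profiles like those of pgl-1 and glh-4 were rarer: the nearest to pgl-1 were iff-1 at 0.243 and the ribosomal protein genes rpl-10 and rpl-11.1 at 0.272 and 0.306, and the nearest to glh-4 were golg-5, pigv-1 and snrp-200 (0.282 to 0.324). The limit of 20 CPM could be met in any group, so the input part of some neighbours' profiles rests on few reads. For example, nft-1 had 9.76 CPM in the deletion inputs, where 8.22 CPM of dpf-3 came from 6 reads in all. Differences for such genes are less precise than their digits. All profiles come from the same 18 libraries.

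Nearest genes were picked as the smallest differences among all genes searched, so members are set beside the share of those genes that were nearer. The smallest difference between members was 0.28, between pgl-3 and deps-1, with 1.52% of the genes searched nearer to pgl-3 and 4.67% nearer to deps-1. Next was 0.523 between pgl-1 and znfx-1, with 0.937% of genes nearer to pgl-1 and 7.65% nearer to znfx-1. The related pgl-1 and pgl-3 differed by 0.841, with 18.2% of genes nearer to pgl-1 and 32.4% nearer to pgl-3. For glh-1 and glh-4 the difference was 1.05, with 51.1% nearer to glh-1 and 43.6% nearer to glh-4. The profile of glh-1 was 0.796 or more from every other member, and 34.1% to 62.6% of the genes searched were nearer to glh-1 than the other members were.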

How the data were processed

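Per the labels' protocols, RNA was treated with a 5' polyphosphatase, libraries were made with a kit for microRNAs, and only the input RNA was first enriched for small RNAs. The deposited table holds whole-number read counts per gene or unnamed interval, not normalised by the authors, for 18 libraries. Tools listed in the submitters' processing notes are HTSeq 0.11.2, Bowtie 1.2.3, cutadapt 2.3 and SAMtools 1.9, with the build ce11. Not given in the sources used here are the annotation, the strand setting, the use of molecular identifiers and how multi-mapping reads were handled, so reads of near-identical relatives may be shared. Reads in no feature (32.5% to 38.6% of counted reads in IPs, 68.6% to 82.4% in inputs) stayed out of library sizes and tests.

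One edgeR 4.0.16 quasi-likelihood model (R 4.3.3) took the counts of all 18 libraries, with 1 coefficient for each group and TMM factors (0.434 to 2.37). filterByExpr at a minimum count of 10 kept 11648 of 75393 features (9869 genes, 1779 intervals), and p-values were adjusted over all of them by Benjamini-Hochberg. The fit was tested on simulated data. An SE is the size of the log2 fold over the root of its F statistic. Paralog ratios used counts plus 0.5 and an exact permutation test. Alternatives were DESeq2 1.42.0, its size factors, total counts, all counted reads, no filter, genes only, contrast groups only, a replicate block and each library left out. TMM reference libraries were alternatives chosen after seeing the data. The members and lists were chosen with earlier results of these data known. Named are the 6 members, their relatives, per contrast and direction the 2 listed germ granule genes with the largest called fold at 20 CPM or more, the 3 nearest profiles per member, and the targeted genes, of which some are not printed. Spans come from the RefSeq table of WBcel235.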

Additional observations from a re-analysis of the deposited data

Results flagged for a closer look

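The IP over input of pgl-1 differed between dpf-3 deletion and intact animals, with a difference of log2 folds of 1.79 (interaction term, edgeR adjusted p = 1.38e-13). It rests on 252 reads in the deletion inputs and 208 in the intact inputs, compared with 6592 and 322 in the IPs.

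The IP over input also differed between WAGO-3 and WAGO-1 for 5 of the 6 genes. The differences of log2 folds were 2.14 for pgl-1, 1.58 for znfx-1, 1.39 for glh-4, 1.31 for pgl-3 and 1.08 for deps-1 (interaction terms, edgeR adjusted p of 2.25e-17 to 0.00266). Both sets use the same intact WAGO-1 libraries.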

How the results depend on the processing

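Of 32 member calls, 31 kept direction and side of the threshold with DESeq2, 32 with DESeq2's size factors in edgeR, 31 without a filter, 30 with genes only, 32 with the contrast's groups only, 28 with all counted reads and 26 with total counts. With the replicate block all 32 were kept and glh-1 between the WAGO-1 inputs was added (0.36, 4 members called), and same-letter libraries correlated at -0.015 to 0.144, so the letters were not taken to pair them. Total counts per library moved most values. Signs turned to -0.21 (glh-1, intact IP over input), -0.85 (pgl-1, deletion IP over input), -1.05, -0.47, -0.94 and -0.65 (pgl-1, glh-1, glh-4 and znfx-1, WAGO-3 IP over input), and 0.42 and 0.56 (glh-4, deletion over intact in IPs and inputs). Other granule genes were then 2, 2 and 1 higher in the intact, deletion and WAGO-3 IPs, 22 lower in the last, 2 lower between the IPs, and 16 and 0 in the interaction with genotype. Members called between the WAGO-1 inputs became 6. With all counted reads, glh-4 had 0.55, 0.01 and 0.54 in IPs, inputs and interaction, and znfx-1 0.69 in the deletion IP over input, and calls were lost for pgl-3 in the deletion IP (-0.35) and for pgl-1 (0.13) and glh-4 (0.24) in the WAGO-3 IP. That znfx-1 value was 0.01 with genes only, 0.19 without a filter, and 0.06, 0.12 and 0.13 with library B of the intact IP, intact input and WAGO-3 IP as TMM reference, an alternative chosen after seeing the data. With the intact IP as reference, the WAGO-1 inputs gave -0.34 for pgl-3 and -0.27 for glh-1, the WAGO-3 against WAGO-1 inputs -0.02 for pgl-3 and deps-1, and the interaction 0.14 for glh-4 (0.25 with the intact input). With the WAGO-3 IP as reference, pgl-3 in the WAGO-1 inputs was -0.06. Between the WAGO-3 and WAGO-1 inputs, the intact IP as reference lost both higher calls (znfx-1 0.2, glh-1 0.17) and called glh-4 lower at -0.53. In that comparison 1 member was called with DESeq2, genes only or the intact input as reference, and 1 to 2 with a library left out. There pgl-1, near 0, was -0.02 with DESeq2 or its size factors, -0.28, -0.03, -0.07 and -0.05 with the intact IP, deletion input, intact input and WAGO-3 input as reference, -0.05 with contrast groups only, -0.06 with genes only, and -0.10 to 0.27 with a library left out. Members called in the interaction with genotype were 2 with DESeq2, its size factors, genes only or no filter, 5, 5, 3 and 4 with the intact IP, intact input, WAGO-3 IP and WAGO-3 input as reference, 6 with all counted reads, 4 with total counts, and 1 to 2 with a library left out. Of all features 1.55% were called higher under TMM, and 16.5%, 20.9%, 6.89%, 8.48%, 33.2% and 7.41% under these 4 references, all counted reads and total counts. For glh-1 in WAGO-3 against WAGO-1 enrichment the value was 0.22, 0.02 and 0.38 with the intact IP, deletion input and intact input as reference, 0.29 with contrast groups only, and -0.26 to 0.20 with a library left out. The cause was not tested. The inputs, with 21 reads of pgl-3 in the least covered, limit every interaction.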
